A study of Mus musculus with 9 samples.

Results

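C1qa, C1qb, C1qc, Cx3cr1, P2ry12, Tmem119, Csf1r, Aif1 and Trem2 are 9 genes that microglia express far more than other brain cells do. They were chosen by name as known microglia genes, with no cutoff on a value measured here, though with earlier results of these data known. They are 9 of 34324 genes on the autosomes and X that are annotated as protein-coding or long noncoding RNA. DNA methylation at their CpGs was read from whole-genome bisulfite sequencing of the nucleus accumbens, a reward region of the ventral striatum, in 9 male C57BL/6J mice aged 8 weeks. By the phenotype label, 5 mice were Control (numbers 2, 3, 4, 5 and 8) and 4 were Susceptible (numbers 2, 3, 6 and 7), each with 1 library. They attach the same protocol, 10 daily defeats by an aggressive CD1 male, to every library, the Control ones included, and state neither how Control mice were handled nor how susceptibility was scored. No group carries a transgene or deletion per the labels, and each library comes from DNA of a frozen tissue punch. The comparison asks whether methylation at these genes differs between Control and Susceptible mice. In punch DNA, a change in the share of microglia and a change in the methylation level of each microglial genome cannot be told apart.

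Microglia are the resident macrophages of the brain and a minority of its cells, so most DNA in a punch comes from neurons, oligodendrocytes and astrocytes. C1qa, C1qb and C1qc encode the chains of C1q, which starts the classical complement pathway and tags synapses and debris for removal. CX3CR1 is the receptor for the neuronal chemokine fractalkine, P2RY12 senses ADP released by injured cells, CSF1R is the growth factor receptor on which microglia depend, and TREM2 is a lipid-sensing receptor of phagocytic microglia. TMEM119 is a surface protein used as a microglia marker, and Aif1 encodes IBA1, the stain by which microglia are usually found. CpG islands at gene starts are mostly unmethylated in all cells, while CpG-poor starts and enhancers of genes used by 1 cell type are often unmethylated in that cell type alone.

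A methylation level here is the percentage of calls read as methylated, over all listed CpGs of a region. Every listed cytosine had at least 10 calls. Listed calls ran from 313475624 to 430312082 in Control libraries and from 432409939 to 570984634 in Susceptible ones. The groups thus did not overlap in depth, and an effect of depth cannot be told apart from one of group. The autosomal level ran from 74.5% in Susceptible 7, the lowest library, to 77.1% in Control 5, the highest. The 2 strands of a CpG disagreed more in Control 5 and Control 8, by factors of 18.4 and 19.7 over sampling noise, than in the other libraries, at 2.38 to 6.11. The files together cover 18974412 CpGs, and 5818940 of these appear in every file. At 9 genes used by striatal projection neurons, the main cells of this region, the median gene body level was 35.4%, against 72.4% over all protein-coding bodies.

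In build GRCm38, C1qa spans chr4:136895916-136898844, C1qc chr4:136889801-136892936 and C1qb chr4:136880126-136886200. Cx3cr1 spans chr9:120048683-120068296, P2ry12 chr3:59216271-59262985 and Tmem119 chr5:113793729-113800396. Aif1 (chr17:35170986-35176083) and Trem2 (chr17:48346401-48352276) share chromosome 17.

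Promoter sequence was at hand for 6 of the 9 genes (RefSeq, build GRCm38.p6). The 250 bases before the start of 4 of them are shown to let the sparse CpGs be seen beside their levels. CpGs are in capitals, and each run reads in the direction of the gene.
C1qb, chr4:136886201-136886450, minus strand: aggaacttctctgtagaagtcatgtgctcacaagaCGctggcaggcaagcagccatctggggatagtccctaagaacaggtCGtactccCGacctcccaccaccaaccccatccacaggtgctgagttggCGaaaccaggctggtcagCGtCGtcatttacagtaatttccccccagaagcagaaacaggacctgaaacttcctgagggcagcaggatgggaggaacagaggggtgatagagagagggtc
C1qc, chr4:136892915-136893164, minus strand: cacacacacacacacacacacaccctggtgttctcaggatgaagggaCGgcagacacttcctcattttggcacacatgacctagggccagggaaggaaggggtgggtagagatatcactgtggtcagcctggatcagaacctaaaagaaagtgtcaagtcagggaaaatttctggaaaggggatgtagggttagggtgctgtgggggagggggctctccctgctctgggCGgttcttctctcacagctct
Cx3cr1, chr9:120068297-120068546, minus strand: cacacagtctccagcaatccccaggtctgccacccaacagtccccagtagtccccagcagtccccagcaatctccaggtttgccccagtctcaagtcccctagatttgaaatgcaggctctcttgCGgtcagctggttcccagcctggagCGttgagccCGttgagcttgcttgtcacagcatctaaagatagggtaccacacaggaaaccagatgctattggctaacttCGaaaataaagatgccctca
Trem2, chr17:48346151-48346400, plus strand: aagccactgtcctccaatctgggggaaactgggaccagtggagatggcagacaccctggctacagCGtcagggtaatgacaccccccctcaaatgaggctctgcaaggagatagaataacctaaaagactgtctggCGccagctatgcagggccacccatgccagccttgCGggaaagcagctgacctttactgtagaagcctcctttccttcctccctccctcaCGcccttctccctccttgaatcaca

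These promoters held few CpGs, and most of those CpGs were methylated. The 6 CpGs of the C1qb sequence averaged 86.8% to 92.1% over the 9 libraries. In the C1qc sequence, the CpG 203 bases before the start stood at 92.7% and the CpG 21 bases before it at 76.9%, the latter listed in 8 libraries. The 4 Cx3cr1 CpGs stood at 78.4%, 74.3%, 58.9% and 81.1% in reading order. The 4 Trem2 CpGs stood at 82.1%, 90.9%, 77.5% and 83.7%. P2ry12 has 3 CpGs in the same stretch, of which 1 was listed in no library and the others in 2 and 3, so its promoter level is barely measured. Aif1 has 1, at 57.5% in 7 libraries.

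Over windows of 300 bases (250 before the start and the rest after it), the 6 promoters held 1, 3, 4, 5, 5 and 6 CpGs, against a median of 7 over 32851 promoters of that length. Motifs of 3 factor families that act in microglia were searched for on both strands. GAGGAAGT, bound by the myeloid factor PU.1, occurred only in C1qc, 195 bases before the start on the opposite strand, and in 3.20% of all promoters. Its core GAGGAA, which overlaps the longer motif, occurred in C1qb, C1qc, Aif1 and Trem2, and in 28.3% of all promoters. The composite element bound jointly by PU.1 and IRF factors occurred in 0 of the 6 and in 2.72% of all. TGTGGT, a RUNX motif, occurred in C1qc and Cx3cr1 and in 16.8% of all.

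The starts of the 9 genes were highly methylated in punch DNA, and Tmem119 was the lowest of them. For C1qa, Tmem119 and Csf1r the start is the outer bound of the gene on its known strand, and for the others the RefSeq promoter table gave it. Over 1000 bp on each side of the start, the mean of the 9 libraries was 79.5% at C1qa, 84.8% at C1qb, 83.6% at C1qc, 76.8% at Cx3cr1 and 84.0% at P2ry12. It was 85.8% at Csf1r, 81.1% at Trem2, 79.0% at Aif1 and 57.1% at Tmem119. The median over 15419 protein-coding starts was 8.29%, and 25.3% of them stood at 70% or more. Tmem119 therefore lay above 71.6% of protein-coding starts, and Csf1r, at the other end, above 86.5%. Neighbours in this order differed by less than the spread over libraries: the 9 values at Csf1r ran from 76.7% to 93.9% and those at P2ry12 from 71.3% to 93.6%. Tmem119 had the lowest mean, and it lay below Cx3cr1, the next lowest, in every library except Control 5. In Control 5, its highest library, Tmem119 stood at 70.1% and Cx3cr1 at 69.0%. The P2ry12 window was not high throughout. Its stretch with the start and the first part of the gene (chr3:59262001-59263000) averaged 38.6% in Control and 52.4% in Susceptible libraries. That stretch had as few as 1 CpG and 15 calls in a library and was not tested.

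**Figure D1:**
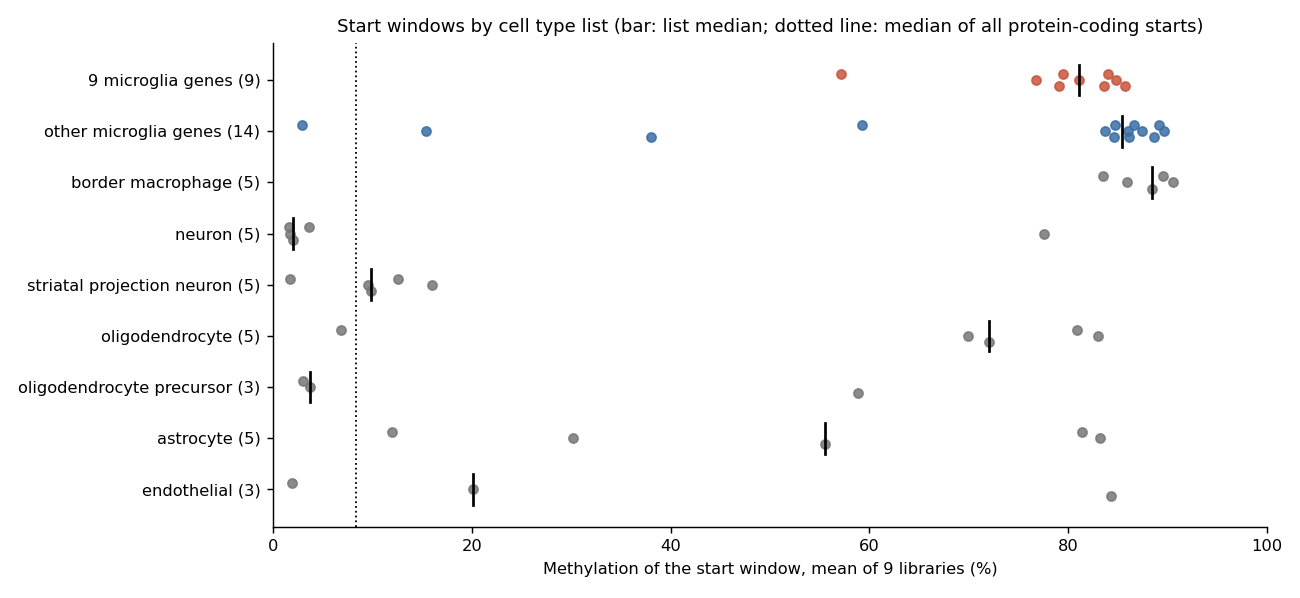
Methylation of the window 1000 bp on each side of the start, as the mean of 9 libraries (x axis, percent), for genes of each cell type list (rows; number of starts measured in brackets). Each point is a gene, the bar is the list's median and the dotted line is the median of all protein-coding starts, 8.29%. Of the 9 microglia genes, 8 lie between 76.8% and 85.8%, with Tmem119 at 57.1%.

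A longer list of 20 other microglia genes had mostly high starts too, with exceptions. Of these, 14 had a start that could be placed and measured, with a median of 85.4%. Sall1 and Irf8, which encode transcription factors of microglia, stood at 2.87% and 15.4%. Olfml3, a secreted protein, stood at 38.1% and the lysosomal marker Cd68 at 59.3%. The other 10 starts, among them Itgam (88.7%), Ctss (89.7%) and Fcrls (89.2%), lay at 83.7% or more. Starts of 5 genes of border macrophages had a median of 88.5%, those of 5 oligodendrocyte genes 72.1%, of 5 astrocyte genes 55.5% and of 5 neuron genes 1.95%. No test was made between the lists.

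By the mean of 9 libraries, the lowest tile with enough calls was at the start in C1qb, C1qc and Trem2 and inside the gene in the other 6. Levels in tiles of 1000 bp were measured for 106 tiles touching the 9 genes and the 1000 bp before each start. Of these, 3 averaged under 50% (2.83%), against 6.01% of all 1041809 tiles, whose median was 88.8%. All 3 were in C1qa or Tmem119. C1qb, C1qc and Trem2 had no tile under 70%: their lowest were the tiles at the start, at 82.5%, 79.7% and 80.4%. At C1qc and Trem2 this place was not the same in both groups. In Control libraries the C1qc tile chr4:136891001-136892000 was lower than the start tile (81.2% against 83.1%). In Susceptible libraries the Trem2 tile chr17:48350001-48351000 was lower than the start tile (80.4% against 83.8%).

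**Figure D2:**
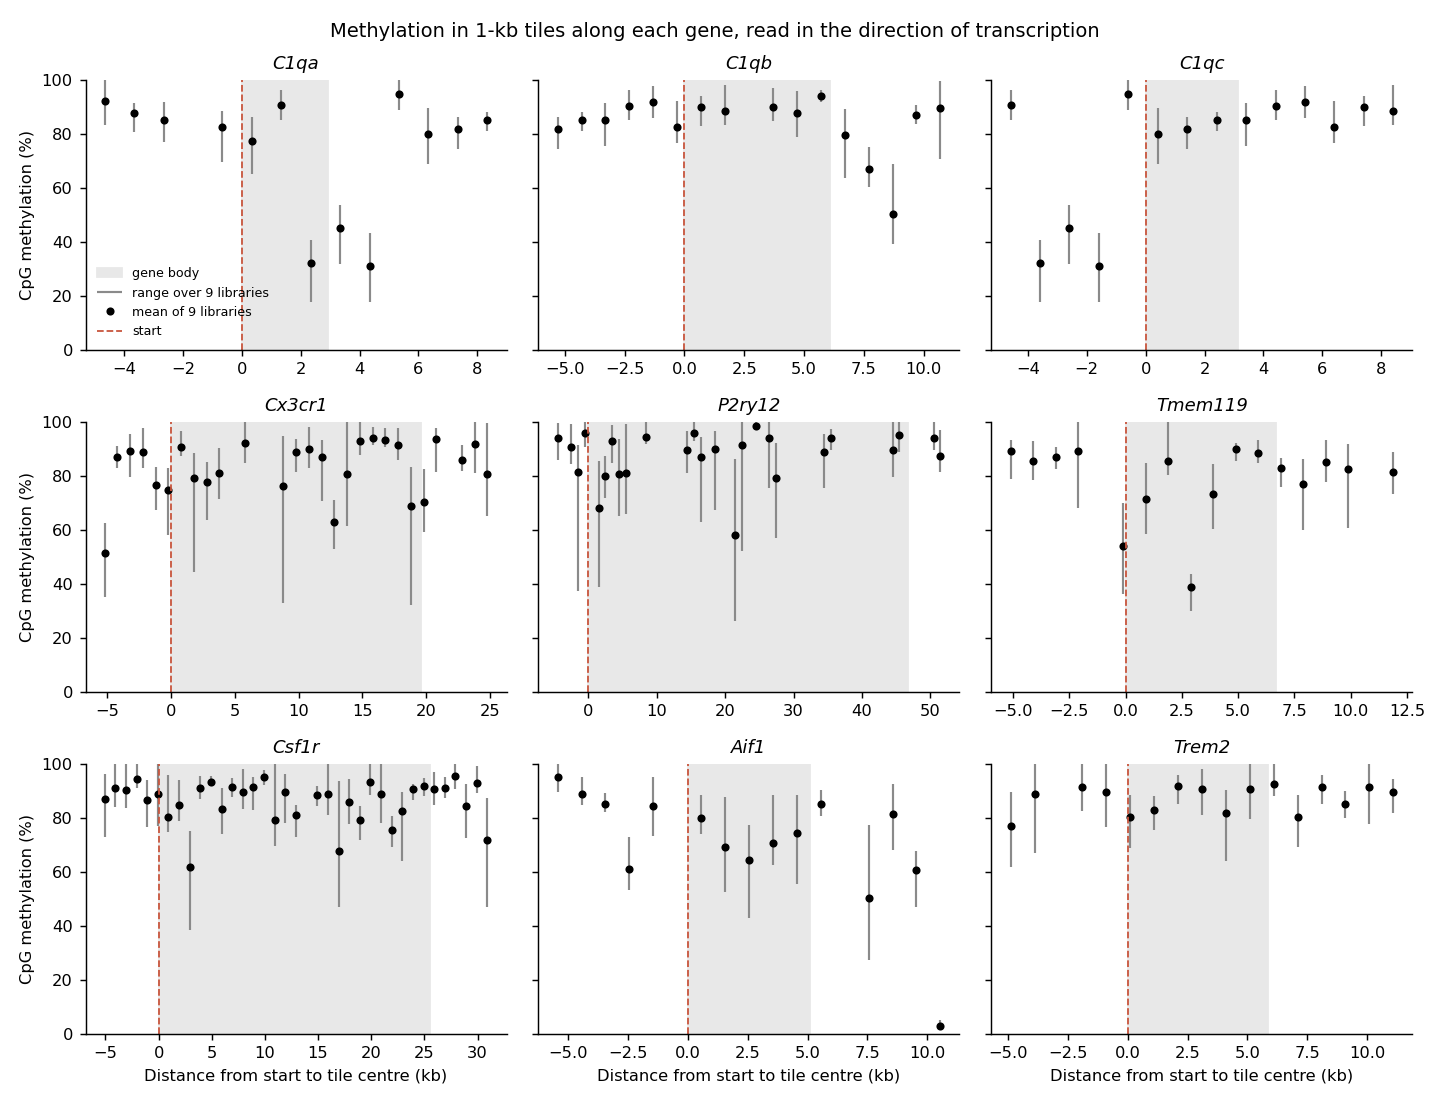
Methylation of tiles of 1000 bp (y axis, percent) by the distance of the tile's centre from the start of the gene (x axis, kb, negative before the start), with 1 panel per gene. Points are means of 9 libraries, lines the range over libraries, grey the gene body and the dashed line the start. The low tiles of C1qa are at its far end, and those of Tmem119 are at its start and in the body.

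The lowest methylation at the C1q genes lay between C1qa and C1qc rather than at any start. The genes stand in the order C1qa, C1qc, C1qb on chromosome 4 and are read on the minus strand. The tile over the last part of C1qa (chr4:136896001-136897000) averaged 31.9%. Control libraries 2, 3, 4, 5 and 8 had 35.6%, 39.0%, 18.6%, 38.1% and 30.7%, and Susceptible libraries 2, 3, 6 and 7 had 40.8%, 32.6%, 34.6% and 17.5%. Control 4 and Susceptible 7 were the low libraries, 1 in each group, and the groups overlapped. The next tile, which holds the end of the gene, averaged 44.9%.

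At single CpGs, 2 unmethylated stretches stood out there (runs of at least 5 neighbouring CpGs, each listed in at least 5 libraries, with means under 30%). The first, chr4:136895937-136896354, lies in the last part of C1qa, 2490 to 2907 bp after its start. Its 14 CpGs averaged 14.3%, and the libraries ran from 5.77% to 30.3%. The second, chr4:136894034-136894419, lies in no gene, between the end of C1qa and the start of C1qc, 1120 to 1505 bp before the latter. Its 9 CpGs averaged 6.12%, and no library exceeded 8.53%. Control and Susceptible means were 17.6% ± 8.37 (SD, n = 5) and 11.1% ± 3.86 (SD, n = 4) in the first stretch (exact permutation p = 0.206, two-sided). Control 5 was the library at 30.3%, and the difference between the means there, -6.48 points, was -3.30 without it. In the second they were 4.44% ± 2.99 (SD, n = 5) and 7.22% ± 1.82 (SD, n = 4) (exact permutation p = 0.167, two-sided). Over the 3 stretches found at the 9 genes, the smallest adjusted exact permutation p was 0.310.

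**Figure D3:**
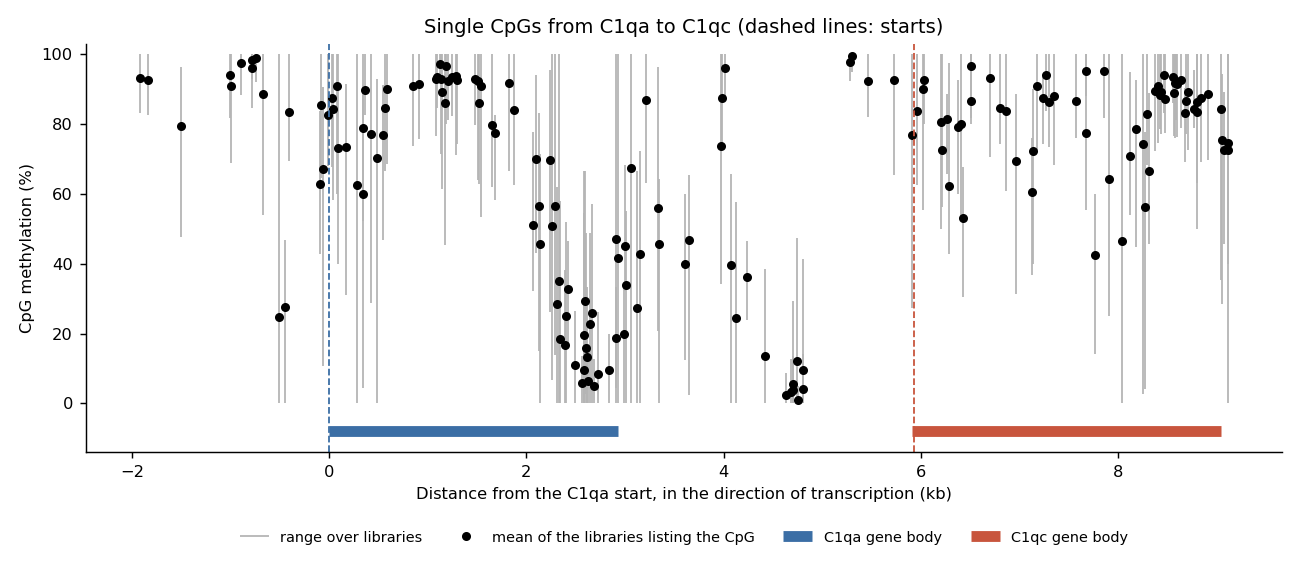
Methylation of single CpGs (y axis, percent) from 2 kb before C1qa to the end of C1qc, by distance from the C1qa start in the direction of transcription (x axis, kb). Points are means of the libraries that list the CpG (at least 5), grey lines are ranges over libraries, bars below are gene bodies and dashed lines are starts. The unmethylated stretches average 14.3% and 6.12%, while both starts are high.

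Tmem119 had the third stretch, and it lay at the promoter. It spans chr5:113800411-113800629, 15 to 233 bp before the start, with 5 CpGs averaging 15.6%. Its values were 17.2%, 2.56%, 7.23%, 37.6% and 25.3% in the 5 Control libraries and 10%, 27.6%, 13.8% and 14.3% in the 4 Susceptible ones. The Control libraries held both the lowest and the highest value (exact permutation p = 0.865, two-sided). The difference between the means, -1.59 points, was 3.32 without Control 5 and -5.45 without Control 3. Around it, the tile over the start averaged 54.1%. A second low tile lay inside the gene, chr5:113797001-113798000, centred 2895 bp after the start, at 38.7% with libraries from 29.8% to 43.7%. Control libraries averaged 40.4% ± 3.42 (SD, n = 5) there and Susceptible ones 36.5% ± 5.94 (SD, n = 4). The limma-moderated p was 0.254. Susceptible 7 was the library at 29.8%. Over CpGs listed in all 9 libraries the difference was -0.528 points, against -3.92 over all listed CpGs.

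In Csf1r, Cx3cr1, P2ry12 and Aif1 the lowest tiles with enough calls were intragenic and only partly low. Csf1r (chr18:61105572-61131139) was lowest in the tile centred 2928 bp after its start (chr18:61108001-61109000), at 62.0%. That tile is in the first part of a gene whose enhancer for macrophages lies in an early intron, though introns were not annotated here. Control libraries had 61.4%, 65.6%, 56.7%, 65.6% and 70.7% there, and Susceptible libraries 59.8%, 64.2%, 75.2% and 38.6%, with Susceptible 7 far below the rest. The difference was -4.53 points over all listed CpGs and -15.6 over CpGs listed in all 9 libraries (limma-moderated p 0.465 and 0.105). The lowest Cx3cr1 tile, at 63.1% (52.9% to 71.1%), lay 12795 bp after the start. The lowest Aif1 tile, at 64.4%, was 2551 bp after the start and had 154 to 441 calls per library. P2ry12 had the thinnest data: 20 of its 48 tiles could be measured, and the lowest, at 57.9%, ranged from 26.2% to 86.1% on 37 to 145 calls. With 37 calls, the 95% Wilson interval of Susceptible 7 there was 59.9% to 86.6%. Among the untested P2ry12 tiles with a mean in both groups, 2 were lower still, each with as few as 1 CpG in a library. In the tile that holds the start and the first part of the gene (chr3:59262001-59263000) Control libraries averaged 38.6% and Susceptible ones 52.4%, on 15 calls at the fewest. In the other (chr3:59243001-59244000) they averaged 49.0% and 43.7%, on 13 calls at the fewest.

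Most of the gene bodies were high as well, against a median of 72.4% over protein-coding bodies. C1qb had the highest mean body level, 91.4%, above 97.0% of protein-coding bodies. Trem2 stood at 87.8%, P2ry12 at 86.4%, Csf1r at 86.2%, Cx3cr1 at 85.5%, C1qc at 83.3%, Tmem119 at 77.3% and Aif1 at 72.8%, the last above 50.7% of protein-coding bodies. C1qa was lowest at 63.0%, above 33.6% of protein-coding bodies, and its unmethylated end is part of that figure. C1qa was thus 16.5 points higher at its start than over its body, and Tmem119 was 20.2 points lower (a difference of -20.2).

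No difference between Control and Susceptible mice at the starts of the 9 genes exceeded the spread between libraries by the test used. In the quasi-binomial test with limma moderation, 0 of the 9 starts passed an adjusted p of 0.05, and 0 passed an unadjusted p of 0.05. Over all 37015 windows the test called 0% after adjustment, and 4.69% had an unadjusted p under 0.05. These windows include both ends of genes outside the RefSeq promoter table, so not all of them are starts. The smallest adjusted p of any window was 0.981. By mean, 7 of the 9 starts were lower in Susceptible libraries, against 52.6% of all windows, with a median difference of -1.95 points. The median over all windows was -0.0991 points, and 0.134 without Susceptible 7. Of the 9 starts, only C1qa changed sign without that library. Of the other microglia genes, 8 of 14 starts were lower (median -0.353 points), and of the border macrophage genes 3 of 5 (-0.209). By mean, 5 of 5 oligodendrocyte starts were lower (median -6.30 points), 4 of 5 astrocyte starts (-4.67) and 2 of 5 neuron starts (0.278). The astrocyte starts averaged 42.3% in Susceptible 7 and 53.8%, 53.1% and 54.1% in Susceptible 2, 3 and 6, against a Control mean of 53.7%. For 0 of the 9 were the groups apart, against 1.77% of all windows.

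In this window the complement gene C1qc had the largest difference. Its start level was 83.4%, 85.9%, 81.3%, 93.4% and 87.6% for Control libraries 2, 3, 4, 5 and 8, while Susceptible libraries 2, 3, 6 and 7 had 77.7%, 81.7%, 85.9% and 75.4%. Susceptible 2 and 7 lay below every Control library and the other 2 did not. Each value rests on 474 to 810 calls, which for Susceptible 7 gives a 95% Wilson interval of 71.8% to 78.7%. The difference was -6.15 points (86.3% ± 4.6, SD, n = 5, against 80.2% ± 4.62, SD, n = 4). Its limma-moderated p was 0.0619 and its adjusted p 0.981. With 2000 bp on each side the difference was -0.959 points, smaller than that of P2ry12 (4.84), and without Control 5 and Control 8 it was -3.39.

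The phagocytic receptor gene Trem2 went the other way. Its Control values were 75.9%, 80.3%, 73.1%, 85.1% and 81.1%, and its Susceptible values 84.5%, 85.9%, 85.1% and 78.9%. Susceptible 3 exceeded every Control library, Susceptible 6 was level with the highest of them, and the rest overlapped. The difference was 4.51 points (79.1% ± 4.67, SD, n = 5, against 83.6% ± 3.22, SD, n = 4), with a limma-moderated p of 0.0889 and an adjusted p of 0.981. With 2000 bp on each side it was 1.9 points. The other 7 differences ran from -3.91 points at Tmem119 to 0.862 at Aif1, with limma-moderated p values of 0.290 to 0.975. The Tmem119 difference was -0.498 points without Susceptible 7 and -1.09 without Control 5. The Csf1r difference, -3.41 points, was -1.03 without Susceptible 7 and -1.75 without Control 5.

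**Figure D4:**
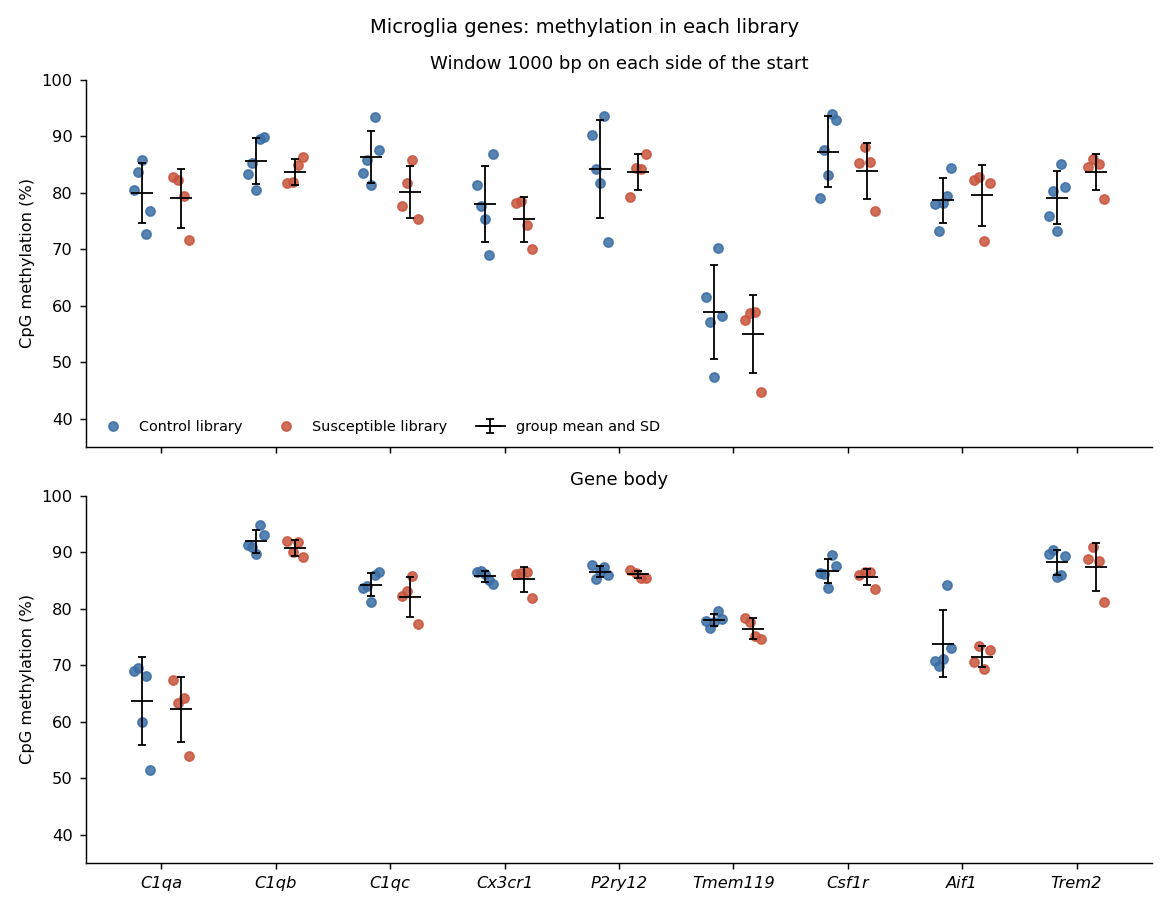
Methylation level (y axis, percent, from 35 to 100) of the start window (top) and gene body (bottom) of each of the 9 genes. Each point is a library, Control left and Susceptible right within a gene, in the order of their numbers, and bars give group mean and SD. The groups overlap at every start and body, and Susceptible 7 is the lowest library in 4 starts and 6 bodies.

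All 9 gene bodies had a lower mean in Susceptible libraries, by small amounts that none of the tests called. The differences ran from -2.35 points at Aif1 to -0.526 at P2ry12, with limma-moderated p values of 0.280 to 0.856. The Aif1 difference turned to 0.251 without Control 5. Over all 32372 bodies the test called 0%, 4.73% had an unadjusted p under 0.05, and 59.4% were lower in Susceptible libraries. The groups overlapped in all 9, and did not in 1.61% of all bodies. Susceptible 7, the library with the lowest autosomal level, was the lowest of 9 in 6 of the 9 bodies, and Control 5, with the highest, was the highest in 4. Without Susceptible 7, 6 of the 9 bodies were lower, and over CpGs listed in all 9 libraries 7 were. Without Control 5 and Control 8 together, 6 were. At Trem2, for example, Control bodies stood at 89.7%, 90.4%, 85.6%, 86.0% and 89.4% and Susceptible ones at 88.9%, 90.9%, 88.5% and 81.1%, so the lower mean came with 1 low library. Among the 20 other microglia genes, 17 bodies were lower, with a median difference of -0.835 points against -0.388 over all bodies, and 0 had an unadjusted p under 0.05. Without Susceptible 7 the median over all bodies was 0.0676 points. The median over the 9 genes was -1.15 points. Bodies of 7 astrocyte genes were also all lower, with a median of -2.31 points. Their mean level was 60.9% in Susceptible 7 and 65.7%, 66.0% and 65.8% in Susceptible 2, 3 and 6. In Control libraries it ran from 65.8% to 67.9%. Of the striatal projection neuron genes 3 of 9 bodies were lower (median 2.94 points), of the border macrophage genes 1 of 6 (0.254) and of the oligodendrocyte genes 4 of 8 (-0.0875). The smallest p values of the longer microglia list were 0.0624 for the Cd68 body (-4.99 points), 0.0785 for the start of Fcer1g, a signalling adaptor (3.48 points), and 0.0804 for the start of the receptor gene Cd33 (-5.86 points), all limma-moderated.

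In tiles within 5000 bp of the 9 genes, small p values were about as frequent as elsewhere. Of 162 tiles tested, 6 had an unadjusted p under 0.05 (3.70%), against 4.38% of all tiles. The groups did not overlap in 3 (1.85%), against 1.56% of all tiles. After adjustment 0% of all tiles were called, and the smallest adjusted p near the 9 genes was 0.997. All 6 were lower in Susceptible libraries, a direction and threshold that 2.19% of all tiles met. Over CpGs listed in all 9 libraries, 5 of the 6 could be tested and 2 of them kept an unadjusted p under 0.05, 1 before Cx3cr1 and 1 in Csf1r. In that form 7 of 137 tiles had such a p (5.11%), against 4.6% of all tiles, and 4 of the 7 were lower and 3 higher in Susceptible libraries. The higher ones were the tile at the Trem2 start (6.35 points), the tile between C1qa and C1qc (8.74 points) and a tile past the end of Csf1r (23.7 points), and the smallest adjusted p was 0.981, all limma-moderated. By mean over all listed CpGs 94 of the 162 were lower (58.0%), against 52.4% of all tiles.

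One of them, in Tmem119, was the 13th smallest p of all 1041809 tiles. The tile, chr5:113796001-113797000, is centred 3895 bp after the start. Control libraries stood at 80.8%, 84.4%, 83.5%, 80.6% and 80.6%, and Susceptible libraries at 60.4%, 61.0%, 63.5% and 65.3%. The 2 groups were well apart, by -19.4 points, with SDs of 1.86 (n = 5) and 2.26 (n = 4), and the limma-moderated p was 1.79e-05 (adjusted p 0.997).

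The difference was far smaller over the CpGs that all libraries measured. Over the 6 CpGs listed in all 9 libraries, Control stood at 88.9% ± 2.51 (SD, n = 5) and Susceptible at 88.3% ± 1.2 (SD, n = 4). The groups thus differed by -0.580 points. The tile holds 7 highly methylated CpGs in its first part (to position 113796405) and 8 in its last part (from 113796592) that were low on average, though not in every library. The 6 shared CpGs were all among the 7 high ones, so the difference of -0.580 points does not cover the 8 low ones. These 8 reached the minimum of 10 calls at 1 to 5 CpGs in Control and at 6 to 8 in Susceptible libraries. They supplied 2.99% to 15.3% of the calls in Control and 26.8% to 35.9% in Susceptible libraries, without overlap. In the Control libraries their level ran from 0% to 80%, the highest being Control 3 on 10 calls and 1 CpG, and the Control mean was 27.2% ± 33.1 (SD, n = 5) on 10 to 68 calls. In the Susceptible libraries it ran from 8.06% to 13.6%, with a mean of 10.7% ± 2.28 (SD, n = 4) on 102 to 147 calls. The tile was singled out for its difference, so the values of its CpGs are a description, with no test. What set the coverage of the low CpGs was not tested. The 7 high CpGs averaged 88.1% ± 2.05 (SD, n = 5) among Control libraries and 86.7% ± 1.02 (SD, n = 4) among Susceptible ones. The window at the far end of Tmem119, which does not reach this tile, had groups that did not overlap, as in 1.77% of all windows. Control libraries ran from 87.5% to 91.3% there and Susceptible ones from 82.7% to 87.2%. The limma-moderated p was 0.0808 and the adjusted p 0.981. At the far ends of C1qa and Csf1r the groups overlapped.

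**Figure D5:**
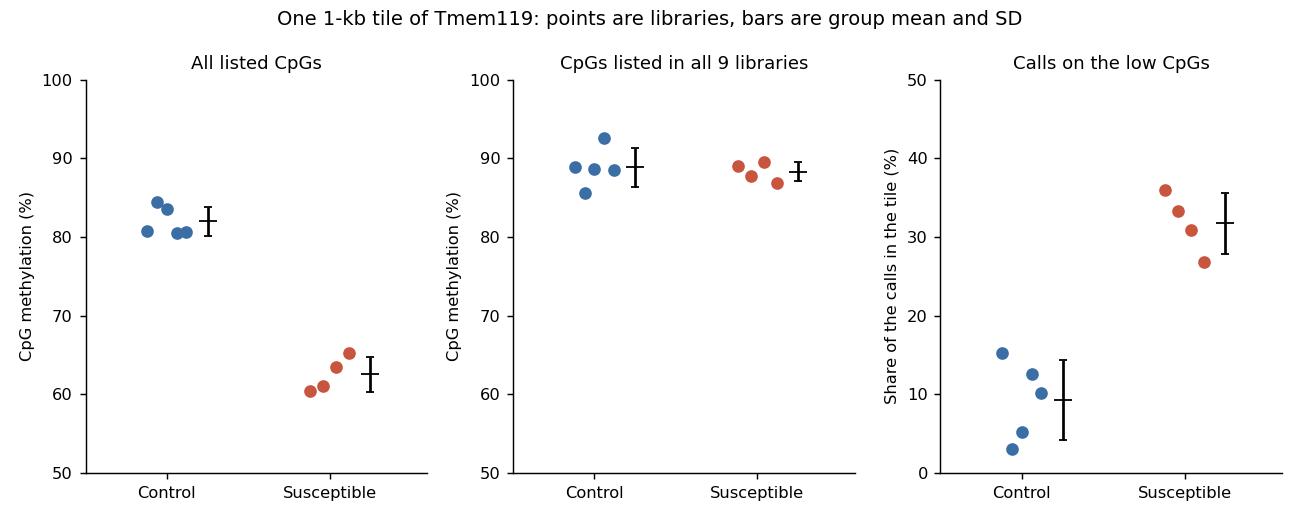
The tile of Tmem119 centred 3895 bp after its start, in 5 Control and 4 Susceptible libraries (points; bars are group mean and SD). Left, level over all listed CpGs (percent), 80.6% or more in Control and 65.3% or less in Susceptible libraries; middle, level over the 6 CpGs listed in all 9 libraries, where the groups overlap; right, the share of the tile's calls on its 8 low CpGs (percent). The 6 CpGs of the middle panel are all highly methylated ones, so none of the 8 low CpGs enters it. The level axes start at 50%.

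Over all listed CpGs the other separated tiles differed less than the Tmem119 tile, and over CpGs listed in all 9 libraries they differed more. The latter order does not compare whole tiles, since the shared CpGs of the Tmem119 tile include none of its low ones. Just before the C1qa start (chr4:136899001-136900000) Control libraries stood at 85.7%, 86.2%, 87.1%, 88.4% and 87.3% and Susceptible ones at 81.6%, 79.1%, 78.4% and 69.6%. That is a difference of -9.77 points, with a limma-moderated p of 0.0215. Over the CpGs that all libraries list it was -3.66 points, with a limma-moderated p of 0.443. In the first part of Csf1r (chr18:61106001-61107000) Control stood at 78.1%, 79.3%, 82.2%, 96.0% and 83.6% and Susceptible at 74.7%, 76.4%, 76.2% and 75.1%. The Csf1r difference was -8.25 points, with a limma-moderated p of 0.0327, and -5.22 points without Control 5. Over the shared CpGs it was -6.62 points, with a limma-moderated p of 0.0415. Neither passed adjustment.

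Across the 9 libraries, the starts of the 9 genes showed no pair that passed adjustment. The median Pearson r over the 36 pairs was 0.07, with values from -0.78 to 0.79, and 21 pairs were positive. Over all pairs of protein-coding starts the median was 0.01. By permutation of the libraries 5 pairs had an unadjusted p under 0.05, and the smallest adjusted permutation p was 0.169 for Pearson's r and 0.385 for Spearman's rho. The lowest pair was C1qa with C1qb (r = -0.78, rho = -0.77), and r stayed at -0.81 without the 2 libraries farthest from the C1qa median. Control 5 and Control 8, which were high at C1qb (89.4% and 89.8%), were low at C1qa (72.6% and 76.8%). The other pairs with an unadjusted permutation p under 0.05 moved more without the 2 libraries farthest from the first gene's median. C1qc with Tmem119 went from 0.79 to 0.27 and C1qc with Csf1r from 0.78 to 0.42. Cx3cr1 with P2ry12 turned from -0.70 to 0.10, and Tmem119 with Csf1r went from 0.66 to 0.06.

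For gene bodies, the median r over 36 pairs was 0.40, with 34 pairs positive, and the median over all protein-coding bodies was 0.06. Only C1qb with Csf1r passed adjustment (r = 0.91, adjusted permutation p = 0.0241), and by rank it did not (rho = 0.73, adjusted permutation p = 0.187). Its r was 0.75 without the 2 libraries farthest from the C1qb median. In the same check on the first gene of a pair, other pairs moved either way. Cx3cr1 with Tmem119 turned from 0.34 to -0.72 and Cx3cr1 with Csf1r from 0.24 to -0.65. P2ry12 with Tmem119 went from 0.75 to 0.88 and C1qc with Csf1r from 0.85 to 0.80. Body levels averaged over the 9 genes ran from 77.7% in Susceptible 7 to 84.5% in Control 5, the libraries at the bottom and top of the autosomal level. Correlations of the 18 starts and bodies with the autosomal level gave a smallest adjusted permutation p of 0.109, shared by the C1qc body (r = 0.83, rho = 0.65, r = 0.41 without the 2 farthest libraries) and the C1qc start (r = 0.79, rho = 0.68, r = 0.46 without them).

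The protein-coding starts most like the mean standardised start level of the 9 genes, by Pearson's r over 9 libraries, were Cdon (0.97), Sost (0.97) and Crygd (0.96). They were picked as the highest of 15419 starts, so the values describe the choice. Each had its lowest level in Susceptible 7 and its highest in Control 5, as at Cdon with 86.9% and 98.5%.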

How the data were processed

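The deposited files list cytosines of CpGs by strand in each library, with a coverage column and percentages. Per the file headers, coverage is a count, the number of calls made at a cytosine. The deposited percent of C and of T are shares of those calls. The authors' tools were Bismark, Bowtie and Picard, with build mm10, per the submitters' processing notes, and the listed minimum of 10 calls was applied before deposit. Methylated calls were recovered as the count times the percent of C. The 4 and 8 repeated entries of Control 5 and Control 8 were dropped. In 3000 sampled RefSeq promoters, 36312 of 36312 listed CpGs sat on a CG of the GRCm38.p6 sequence. Levels were pooled over both strands of each CpG and over the CpGs of a region.

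Gene bounds came from RefSeq. The start and strand came from the promoter table for 26793 of 34324 genes, and genes outside it were tested at both ends. The strands of C1qa, Tmem119 and Csf1r were taken from general knowledge, with these genes' outer bound as the start. Their other ends stood at 20.6% to 43.4%, 82.7% to 91.3% and 86.8% to 93.9%. Exons were not analysed here.

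A region was tested where each library listed 3 or more CpGs and 20 or more calls in it. Control and Susceptible were compared by a quasi-binomial model with dispersions moderated as in limma (version 3.58.1, R 4.3.3; Python 3.11.15, numpy 2.4.6, scipy 1.17.1), adjusted by Benjamini-Hochberg over all windows, bodies or tiles. It was tested on simulated data. Single values were compared by exact permutation. Correlations used all permutations of 9 libraries. The text names all 9 genes, the lowest tile of each, tiles whose groups do not overlap, the 3 smallest p of the longer list and the 3 most alike starts. The members and lists were chosen with earlier results of these data known. Libraries are separate mice as far as labels state. The Wilson intervals treat calls as independent and cover at most counting error, not the spread between mice. No molecular identifiers are recorded, so calls may not be independent and the intervals may be too narrow. Alternatives covered tests, windows, CpG choice, depth, strand noise, single libraries and the replicate block.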

Additional observations from a re-analysis of the deposited data

Results flagged for a closer look

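At 4 regions of the 9 genes, 1 library stood apart from the rest of its group by Dixon's gap criterion, out of 42 groups examined; chance marks about 1 group in 20. At the Tmem119 start, Susceptible 7 stood at 44.7%, against 57.5% for the nearest Susceptible library. Over the body of Cx3cr1, Susceptible 7 stood at 81.8%, against 86.2% for the nearest. Susceptible 7 also had the lowest autosomal level of the 9 libraries, 74.5%. Over the body of Aif1, Control 5 stood at 84.2%, against 73.1% for the nearest Control library, and Control 5 had the highest autosomal level, 77.1%, and a strand disagreement of 18.4. At the Aif1 start, Susceptible 6 stood at 71.4%, against 81.8% for the nearest Susceptible library. The part of each library's own properties in these values was not tested.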

How the results depend on the processing

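The counts of called start windows and gene bodies were 0 under every alternative run. The count of called tiles was 0 under all but 1: leaving out 1 library at a time gave 0 to 1, the 1 without Control 4 (smallest adjusted p 0.0370). The smallest adjusted p of the starts, bodies and separated tiles of the 9 genes under any alternative was 0.875. The number of the 9 gene bodies lower in Susceptible libraries, 9, ranged from 6 to 9. The median correlation of starts, 0.07, was 0.40 over bodies, 0.21 over CpGs listed in all 9 libraries, 0.03 with group means subtracted and 0.03 to 0.12 with 1 library left out. Alternatives that change the test alone keep the difference of means.

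Of 416 alternative values for 24 differences at the 9 genes, 37 changed sign, and the cause was not tested. None of the 24 differences was called, so no sign change could fall on a called one. Leaving out 1 library at a time, the differences in points ran from -2.73 to 1.56 at the C1qa start, -4.47 to 1.33 over its body, -3.78 to 1.80 at the P2ry12 start and -0.483 to 3.56 at the Aif1 start. They ran from -3.32 to 0.251 over the Aif1 body, -0.973 to 0.566 over the Cx3cr1 body -2.05 to 1.2 over the Trem2 body and -5.45 to 3.32 in the unmethylated stretch before Tmem119. With 500 bp on each side the C1qa start gave 2.98 and the Aif1 start -0.567. With 2000 bp, Cx3cr1 gave 0.505, P2ry12 4.84, Tmem119 0.617 and Aif1 -2.55. Over CpGs listed in all 9 libraries, the starts of C1qa and Cx3cr1 gave 1.41 and 0.112, and the bodies of P2ry12 and Tmem119 gave 0.897 and 0.0642. Without Control 5 and Control 8 together, C1qb gave 0.710 (start) and 0.188 (body), Csf1r 0.653 (start) and 0.179 (body), and the Aif1 body 0.881.

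Numbers 2 and 3 occur in both groups, and the labels do not say that they mark a shared litter or day. Deviations from the group means of libraries with the same number correlated at 0.03 and -0.03 over start windows, which gives no sign of pairing and cannot show that the numbers mark nothing shared. A replicate block on those 4 libraries called 0 windows, 0 bodies and 0 tiles. Under the replicate block the sign changed at the starts of C1qa (0.395) and Csf1r (3.37) and over the bodies of P2ry12 (0.149), Tmem119 (0.783) and Aif1 (1.6).

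The Tmem119 tile was -18.7 to -20.3 points with 1 library left out and -0.580 over shared CpGs, and the C1qa and Csf1r tiles shrank to -3.66 and -3.18 at the least. The shared CpGs of the Tmem119 tile include none of its low ones. The strand noise scaling of tiles and the alternatives for bodies lower, separated tiles and unmethylated stretches were chosen after seeing the data. P2ry12 was covered least, with 20 of 48 tiles measured: the other 28 had under 3 CpGs in some library, and 15 of them also under 20 calls.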
